A study of Tuber melanosporum with 9 samples.

Results

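In the black truffle Tuber melanosporum, 150 of 7496 genes were taken as genes whose RNA was higher in mycelium grown in liquid medium than in mycelium grown on agar. The members were selected on the measured RNA counts of the 4 libraries. Each count was turned into CPM, the usual scaling of counts by the library's total, here its reads on genes, and 1 was added, and all log2 ratios given here are on this scale. A gene was tested if it had at least 200 reads in the untreated liquid culture and lay outside 13 scaffolds and 1 gene that were set aside, which left 6007 genes. A tested gene passed if the untreated and the 5-aza-treated liquid culture were each at least 4 times the agar mycelium and if the fruitbody lay within 8-fold of the untreated culture. Of the 472 genes that passed (7.86% of those tested), the 150 with the largest smaller ratio of the pair were kept, and 322 were not. Since the rule used RNA of all 4 libraries, every RNA value below is a description of what was selected and carries no test.

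RNA was sequenced from 4 samples and bisulfite-treated DNA from 5, with 1 library per sample. FLM, the free-living mycelium, was the Mel28 strain grown on malt agar. The untreated and treated mycelia were also Mel28, kept in the dark at 23 °C in a synthetic liquid medium with glucose at 5 g/L for 45 days. The treated culture received 5-azacytidine, an inhibitor of DNA methyltransferases, at 100 µM every 5 days, the last time 24 h before harvest, and the untreated culture received water instead. FB was a mature fruitbody collected in the field, whose strain is not stated and which holds spores besides hyphae. ECM, used here for methylation only, was ectomycorrhizal root tips of hazel, a mixture of fungal and plant cells. The medium, the age of the culture and the experiment all changed together between FLM and both liquid cultures, so their parts in the ratios cannot be told apart. The counts of FB and FLM and those of the liquid cultures were also deposited separately, with equal gene lengths for 213 of 7496 genes only. The median length of members was 1448 bp in the former and 221.5 bp in the latter (1648 and 251 bp over all tested genes). The part of this difference in the ratios was not tested. In bulk samples of this kind, fewer cells of a type and less RNA per cell cannot be told apart either.

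T. melanosporum lives in soil as hyphae, exchanges nutrients with tree roots through ectomycorrhizae and forms its spores in underground fruitbodies. In culture its mycelium grows slowly, and the composition and state of the medium set which nutrients reach each hypha. In this fungus DNA methylation sits mostly on transposable elements (TEs), while genes carry very little of it. The gene tables and the reference annotation pair the gene identifiers with no product or function (0 genes have a name beyond their identifier). No role is therefore given to any member, no markers of tissue or cell type could be checked, and the lists of transporters, secreted enzymes, stress genes and other groups set up for this work could take no member. The members are described by their levels, their places in the genome, their methylation and their neighbours.

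Reads on genes numbered from 21802480 to 23816308 per library, and the 10 highest genes took 8.17% to 11.4% of them. Members took 0.257% of these reads in FLM, against 2.00% in FB, 2.30% in untreated and 2.34% in treated mycelium. The untreated culture was above FLM for most genes on the CPM scale, with a median log2 ratio of 0.85 over all tested genes. With size factors from the median of ratios this shift was 0.03. The median of the members then fell from 2.98 to 2.28, 82 genes passed the rule in place of 472, and 75 of the 150 members were among them. All 150 members remained above FLM in both liquid cultures under that scaling, the lowest smaller ratio being 3.04. Intervals given for ratios are exact 95% intervals for counting error only, since reads were not marked by molecule and no group had a replicate. Those for shares and medians were taken over genes and hold no variation between libraries.

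The median member had 8.55 CPM in FLM, 76.2 in untreated mycelium, 75.7 in treated mycelium and 32.8 in FB. Over all tested genes the medians were 44.2, 77.5, 81.5 and 60.1 in the same order. Members therefore had a level in liquid culture close to that of the typical tested gene, and a level in FLM well below it. The median log2 ratio of untreated over FLM was 2.98 in the members, and that of treated over FLM was 2.88 against 0.90 over all tested genes. Among the tested genes, 821 (13.7%) were at least 4 times higher in untreated mycelium than in FLM, 611 (10.2%) were so in both liquid cultures, and 190 (3.16%) were at a level in untreated mycelium of at most 0.25 times that in FLM. The minimum of 200 reads was asked of untreated mycelium only, which removes genes low there and high in FLM. These counts also carry the median log2 shift of 0.85, so the numbers of higher and lower genes cannot be compared. FLM was the lowest of the 4 libraries in 146 of the 150 members, as in 54.5% of all tested genes. With median-of-ratios size factors these were 138 of 150 members and 31.9% of tested genes. The rule placed both liquid cultures above FLM in every member, so the members' count rests on FB alone. The limit on FB kept that library near or above the FLM level, so the count was nearly fixed and its distance from the share of tested genes is no result.

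**Figure D1:**
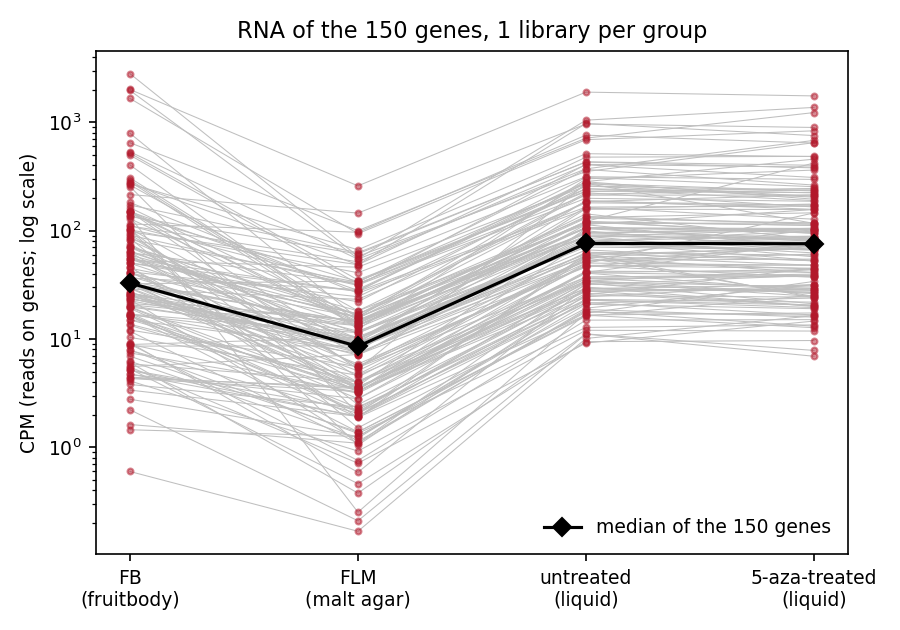
RNA levels of the 150 genes in the 4 RNA libraries, in CPM on a log axis; each grey line joins the points of 1 gene and black diamonds are medians. The median is lowest in FLM, at 8.55, against 76.2 and 75.7 in the liquid cultures and 32.8 in FB.

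The smaller of the ratios of untreated and of treated over FLM ran from 22.7 for the first member to 5.63 for the last, with a median of 7.02. In 50 members it was at least 8 and in 7 at least 16. The leading member, GSTUMT00002873001 (scaffold 153, 16879 to 19122), had 292 reads in FLM against 6743 in untreated mycelium, 7896 in treated mycelium and 9451 in FB. In CPM it was 24.5 times higher in untreated mycelium than in FLM (95% counting interval 21.8 to 27.6). Its fruitbody level was as high as that of the liquid cultures, so that FLM stood alone as the low library.

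GSTUMT00001736001 (scaffold 118, 48918 to 51755) had the largest ratio of untreated over FLM in log2 terms among the members, 5.46. It had 125 reads in FLM, 6137 in untreated and 2543 in treated mycelium, and 3504 in FB. Its level was thus 52.1 times higher in untreated mycelium than in FLM (43.6 to 62.7) and in treated mycelium it was 0.427 times the untreated level. GSTUMT00003101001 (scaffold 157) combined a large ratio with a high level, with 1314 reads in FLM, 23476 in untreated, 29900 in treated mycelium and 46076 in FB. This is a ratio of untreated over FLM of 19.0 (17.9 to 20.1).

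In other leading members FB was low as well, and the liquid cultures stood apart from both other libraries. GSTUMT00002559001 (scaffold 133) had 81 reads in FLM and 381 in FB, against 1804 in untreated and 1942 in treated mycelium. GSTUMT00008252001 (scaffold 43) had 183 reads in FLM and 627 in FB, against 3575 and 3836 in the liquid cultures. GSTUMT00005278001 (scaffold 19) had 380 reads in FLM, 1283 in FB, 6367 in untreated and 9960 in treated mycelium. These 3 genes were 3.44 to 4.79 times higher in FB than in FLM, while in untreated mycelium they were 17.8 to 23.6 times higher than in FLM. GSTUMT00007845001 (scaffold 4) lay between the patterns, with 88 reads in FLM, 687 in FB, 2342 in untreated and 1732 in treated mycelium.

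**Figure D2:**
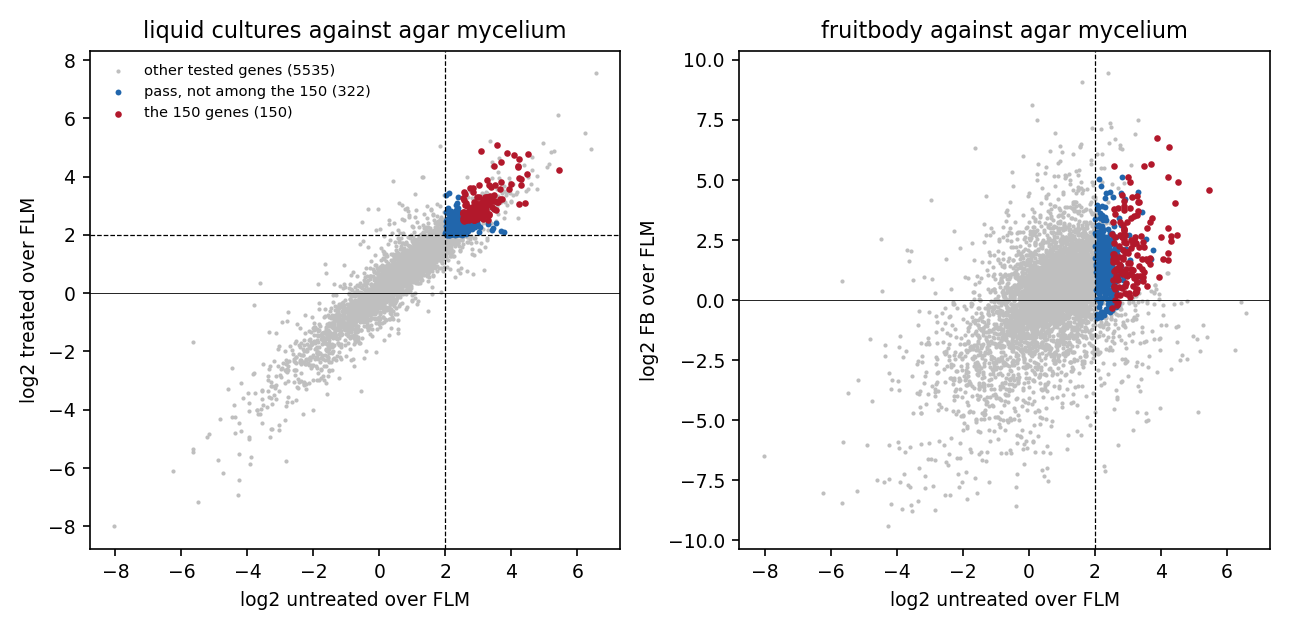
Log2 ratio of untreated mycelium over FLM (x axis) against that of treated mycelium over FLM (left) and of FB over FLM (right) for 6007 tested genes; dashed lines mark the 4-fold limits, red points the 150 genes and blue points the 322 others that passed. Members lie along the line of equal ratios on the left and spread from -0.32 to 6.76 on the FB axis on the right.

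The most abundant member by reads, GSTUMT00003192001 (scaffold 162, ranked 81), had 46986 reads in FB and 6168 in FLM, with 42597 in untreated and 38179 in treated mycelium. Its ratio of untreated over FLM was 7.33 (7.13 to 7.53). In CPM per kilobase of exon (RPKM), the highest member in liquid culture was GSTUMT00011590001 (scaffold 88, 723 bp of exon), at 379 in FB and 67.1 in FLM, with 1348 in untreated and 1043 in treated mycelium. Of the 10 members with the most reads in untreated mycelium, GSTUMT00003257001 and GSTUMT00001146001 were close to their FLM level in FB. Their FB reads were 5037 and 2697, against 3459 and 2300 in FLM. In untreated mycelium they reached 21632 and 17071 reads.

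GSTUMT00002686001 and GSTUMT00004558001 were abundant in FB too. GSTUMT00002686001 had 15150 reads in FB and 2379 in FLM, with 16021 in untreated and 26795 in treated mycelium. GSTUMT00004558001 had 38854 reads in FB and 2235 in FLM, with 15504 in untreated and 18187 in treated mycelium. Both had their lowest level in FLM by a wide margin. GSTUMT00006226001, GSTUMT00004119001 and GSTUMT00011853001 complete the 10 most abundant members, with 9689 to 11513 reads in untreated mycelium and 1154 to 1586 in FLM.

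At the other end, 9 members had fewer than 25 reads in FLM, and 9 of 150 were below 1 CPM there, as in 0.3% of all tested genes. By RPKM, 19 members were below 1 in FLM (0.699% of tested genes). The lowest member had 4 reads in FLM, so none was at 0. For such genes the counting error of the ratio is wide. GSTUMT00006936001, with 6 reads in FLM, was 68.6 times higher in untreated mycelium with an interval from 31.2 to 188. Because 1 CPM was added before ranking, it took rank 10.

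The last members kept were separated from the first genes left out by very little. The smaller ratios of GSTUMT00010920001, GSTUMT00004893001, GSTUMT00006454001, GSTUMT00008424001 and GSTUMT00000169001 were 5.69, 5.69, 5.68, 5.64 and 5.63. Those of the first genes outside, GSTUMT00001402001, GSTUMT00003064001, GSTUMT00003247001, GSTUMT00006437001 and GSTUMT00009090001, were 5.63, 5.62, 5.60, 5.60 and 5.59. The last gene kept and the first left out thus agreed to the digits shown. A further 139 genes were at least 4 times FLM in both liquid cultures but outside the limit on FB. In 132 of them FB was below 0.125 times the untreated level, and in 7 it was above 8 times that level.

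In FB the members ranged widely. FB was higher than FLM in 146 of 150 members, as in 61.3% of tested genes, at least 2 times higher in 113 (32.6% of tested genes) and at least 4 times higher in 67 (12.2%). The limit on FB set a floor near the FLM level for these genes, so the first count was nearly fixed by the rule. The other counts of FB in this paragraph were shaped by it too. Members were chosen for a low level in FLM and a high one in untreated mycelium, and the tested genes had no limit on FB. The median log2 ratio of FB over FLM was 1.79, against 0.42 over all tested genes. Against untreated mycelium, FB was at most 0.5 times the level in 83 members (33.4% of tested genes), within 2-fold in 52 (53.6% of tested genes), and at least 2 times higher in 15 (13% of tested genes). With median-of-ratios size factors these counts were 66, 63 and 21, against 24.4%, 55.3% and 20.3% of tested genes.

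The member with the highest FB level relative to the untreated culture was GSTUMT00000585001 (scaffold 207), with 65774 reads in FB and 1379 in FLM, with 7883 in untreated and 14120 in treated mycelium. It was 8.00 times higher in FB than in untreated mycelium and 48.6 times higher in FB than in FLM. The former ratio lies at the 8-fold limit on FB, beyond which genes were left out. GSTUMT00009295001 (scaffold 55) had 18524 reads in FB and 369 in FLM, with 4163 in untreated and 4648 in treated mycelium. GSTUMT00005986001 (scaffold 22) had 5973 reads in FB and 49 in FLM, with 1266 in untreated and 538 in treated mycelium, and GSTUMT00004302001 (scaffold 11) had 2000, 36, 432 and 692 in the same order. In these 4 genes FB was the highest library and FLM the lowest.

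GSTUMT00007937001 (scaffold 40) and GSTUMT00003209001 (scaffold 162) had the opposite form, with RNA almost confined to the liquid cultures. GSTUMT00007937001 had 34 reads in FB and 30 in FLM, against 398 in untreated and 361 in treated mycelium, and its untreated level was 12.2 times that in FB. GSTUMT00003209001 had 79 reads in FB and 46 in FLM, against 762 and 538. GSTUMT00003278001, GSTUMT00005966001 and GSTUMT00008285001 were likewise 7.73 to 9.12 times higher in untreated mycelium than in FB. In only 4 members was FB at or below FLM: GSTUMT00004532001 (756 reads in FB, 815 in FLM), GSTUMT00009302001 (201 and 206), GSTUMT00011859001 (208 and 246) and GSTUMT00008148001 (130 and 171). This group was chosen after its values were seen, and it comprised 12 members with median-of-ratios size factors.

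The treated and untreated cultures were grown in parallel. The median log2 ratio of treated over untreated was -0.08, against 0.02 over all tested genes. Treated mycelium was lower in 92 members (47.8% of tested genes), a count of 104 with median-of-ratios size factors (56.5% of tested genes) and 89 without the 100 highest genes in the totals (45.0%). It was within 2-fold of the untreated level in 145 of 150, about the share of all tested genes (95.7%). Since the rule asked both cultures to be high, large differences between them were partly selected out.

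At least a 2-fold higher level with 5-azacytidine was seen in 2 members (2.11% of tested genes). GSTUMT00001400001 (scaffold 287) had 2731 reads in untreated and 9176 in treated mycelium, 3.46 times more in CPM, and 319 in FLM and 799 in FB. GSTUMT00009779001 (scaffold 60) had 1118 and 3177 reads, 2.93 times more in CPM, with 78 reads in FLM and 771 in FB. A level of at most 0.5 times the untreated one was seen in 3 members (2.2% of tested genes): GSTUMT00002051001 (0.394 times), GSTUMT00001736001 (0.427) and GSTUMT00005986001 (0.438). GSTUMT00002051001 had 1364 reads in untreated and 522 in treated mycelium, against 45 in FLM. With 1 culture per arm these pairs of values have no replicate check.

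The genome positions of 149 members were taken from the reference annotation, and these lay on 82 of the 282 scaffolds that hold a tested gene, with at most 6 members on 1 scaffold. Position was not used by the rule apart from the scaffolds set aside. Of the genes directly beside a member that were themselves tested, 16 of 256 were members (6.25%), whereas members are 2.5% of all tested genes. These 16 members formed 8 adjacent pairs, in 5 of which the gap was at most 420 bp. Within 10 kb, 23 of the 149 members had another member (15.4%), and 7.5% of tested genes had a member. The genes next to a member had a median log2 ratio of untreated over FLM of 1.12 on one side and 1.11 on the other, against 0.89 and 0.88 for the neighbours of all tested genes. These neighbours include 8 members on each side, which were selected on this ratio. Without them the medians were 1.05 and 1.08, and 14.2% and 15% of the neighbours were at least 4 times higher in untreated mycelium, against 14.3% and 13.9% for the neighbours of all tested genes. From 2 to 5 places away the medians without members ranged from 0.79 to 1.08, the highest at the fifth place on one side, with no steady change with distance.

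**Figure D3:**
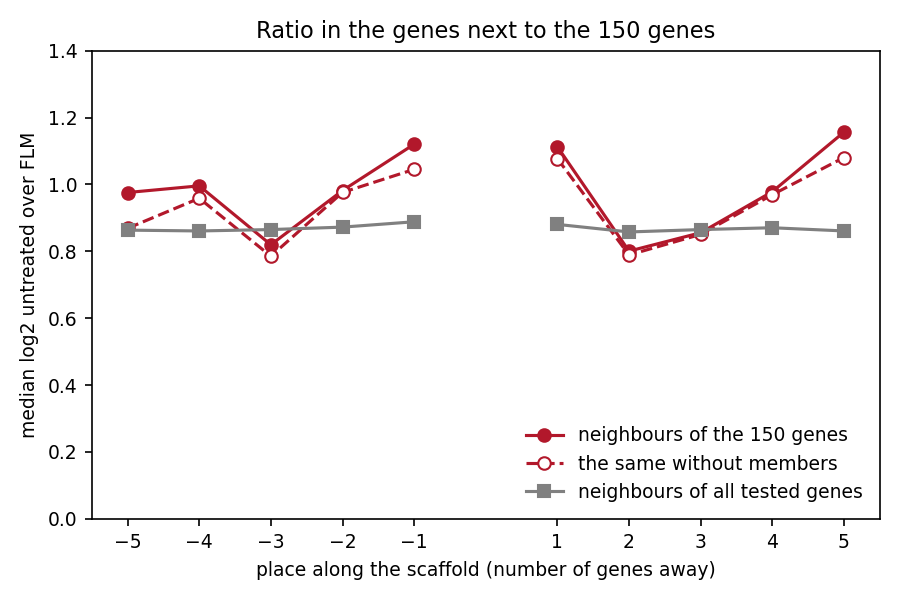
Median log2 ratio of untreated mycelium over FLM in the tested genes 1 to 5 places to either side of the 150 genes (red circles; open without members) and of all tested genes (grey squares). The open circles stand at 1.05 and 1.08 at 1 gene away, between 0.79 and 1.08 farther out with 1.08 again at 5 genes away on one side, and the grey points between 0.86 and 0.89.

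The closest strong pair was GSTUMT00006936001 and GSTUMT00006937001 on scaffold 30, from 63553 to 65255 and from 65326 to 66705, with 70 bp between them. The former had 3161 reads in FB and 6 in FLM, with 388 in untreated and 741 in treated mycelium. The latter had 2392, 25, 572 and 986 in the same order. The genes of this pair share the whole pattern: near silence in FLM, an intermediate level in liquid culture, a higher level with 5-azacytidine and the highest in FB. On scaffold 65, GSTUMT00010051001 (496320 to 498087) and GSTUMT00010052001 (498418 to 499313) lay 330 bp apart. They had 1911 and 216 reads in FB, 219 and 14 in FLM, 4251 and 677 in untreated and 3424 and 434 in treated mycelium. Both were highest in untreated mycelium.

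Not every pair shared its pattern in FB. GSTUMT00000126001 and GSTUMT00000127001 on scaffold 104, 368 bp apart, had similar reads in FLM (211 and 192) and in untreated mycelium (2546 and 1995). In FB they had 736 and 3552, so the former was below its untreated level and the latter above it. GSTUMT00009989001 and GSTUMT00009990001 on scaffold 65, 5867 bp apart, differed in the same way, with 676 and 7174 reads in FB against 4053 and 3038 in untreated mycelium. GSTUMT00005966001 and GSTUMT00005967001 on scaffold 22 lay 2530 bp apart and both stayed low in FB, with 475 and 2122 reads against 3685 and 9171 in untreated mycelium.

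The 3 remaining pairs were GSTUMT00003837001 with GSTUMT00003839001 on scaffold 1, GSTUMT00004941001 with GSTUMT00004942001 on scaffold 16 and GSTUMT00010427001 with GSTUMT00010428001 on scaffold 7. Their gaps were 2306, 420 and 20 bp. Their untreated reads ran from 364 to 2378 and their FLM reads from 33 to 275. The counting is not stated to have used strand, so where neighbours lie this close, reads from the end of one transcript and the start of the next cannot be told apart.

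Members were shorter than the typical tested gene, with a median of 1448 bp of exon against 1648 bp, and the 322 other genes that passed the rule had a median of 1292 bp. When the tested genes were divided into 5 classes of equal size by exonic length, the classes from short to long held 35, 38, 44, 23 and 10 members. The median log2 ratio of untreated over FLM over all tested genes fell from 1.17 in the shortest class to 0.53 in the longest, with a Spearman correlation across 6007 genes of -0.21, in which all genes share the same pair of libraries. The part of gene length in the members' ratios was not tested. The minimum of 200 reads in untreated mycelium asks a higher level per kilobase of short genes, and its part in this trend was not tested either. The paper gives RNA integrity numbers for FB and FLM and none for the liquid cultures, so RNA integrity could not be compared. The GC content of members was 49.7% in the median, against 49.6% in all tested genes, and that correlation was 0.09.

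CG methylation of gene bodies, which the rule did not use, was very low in the members and close to that of all tested genes. Levels are means of per-cytosine levels over sites with at least 4 reads. The median level of 149 members was 0.267% for FLM, 0.348% for the untreated culture, 0.285% for the treated culture and 0.485% for FB. Over all tested genes the medians were 0.268%, 0.334%, 0.310% and 0.485%. In each of the 4 libraries the middle of the members' distribution thus lay within 0.03 points of the reference. In the non-CG contexts CHG and CHH the members' medians were similar, at 0.262% and 0.265% in FLM and 0.466% and 0.461% in FB. They were 0.257% and 0.297% in untreated mycelium and 0.279% and 0.294% in treated mycelium. At such levels, methylation and cytosines left unconverted by bisulfite cannot be told apart, and this holds for the small differences given below. In ECM, where the mean depth was 1.35 reads and sites with at least 1 read were used, the median member was at 0% over a median of 86 sites, against 0.215%. No member exceeded 5% in FLM or in untreated mycelium (0 of 149, 95% interval up to 2.45%), as did 16 and 17 of 6002 tested genes.

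The highest gene body level of any member was 1.17% in the libraries other than ECM. It was reached by GSTUMT00002559001 in untreated mycelium and by GSTUMT00008252001 in treated mycelium. In FLM these genes were at 0.347% and 0.392%. GSTUMT00001429001, GSTUMT00004117001 and GSTUMT00004942001 followed with 0.960%, 0.947% and 0.942% in FB. All of these values are around 1 methylated read in 100.

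From FLM to untreated mycelium the median difference in the members' gene body CG level was 0.071 points (95% interval of the median 0.033 to 0.104), against 0.063 points in all tested genes. The largest difference in size was 0.935 points in GSTUMT00002925001, over 73 sites, and GSTUMT00002559001 followed with 0.860 points over 113 sites. In GSTUMT00002673001, GSTUMT00011754001 and GSTUMT00002877001 the differences were 0.561, 0.535 and 0.477 points. In CHG and CHH contexts the median differences of the members were 0.000 and 0.033 points, against 0.024 and 0.036. For treated minus untreated mycelium the median difference in CG level was -0.061 points in members and -0.022 in all tested genes. The median differences in CHG and CHH level were 0.023 and -0.003 points in members, against 0 and -0.002 in all tested genes.

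**Figure D4:**
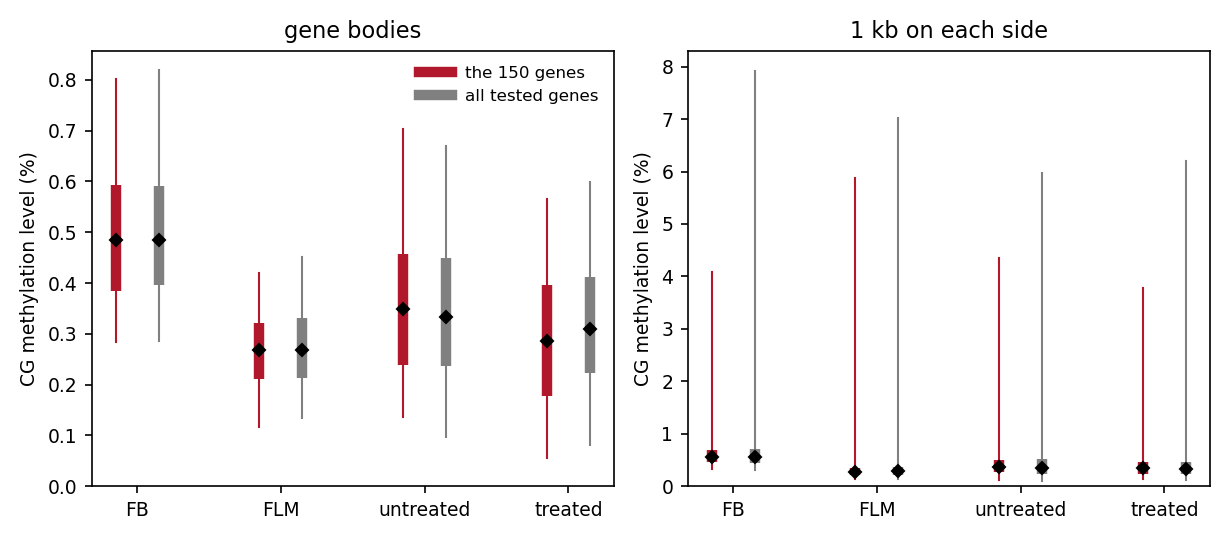
CG methylation level in percent in gene bodies (left) and in the 1 kb on each side (right) in 4 libraries, for the 150 genes (red) and all tested genes (grey); diamonds are medians, thick bars the middle 50% and thin bars the range from the 5% to the 95% point of the genes. Red and grey medians lie side by side, at 0.267% and 0.268% in FLM gene bodies and at 0.273% and 0.282% in FLM flanks.

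The 1 kb on each side of the genes gave the same picture with a longer upper tail. The median flank level was 0.273% in FLM and 0.368% in untreated mycelium, against 0.282% and 0.350% over all tested genes. Flanks above 5% were found in FLM beside 9 of 149 members (6.04%, interval 2.80% to 11.2%) and 6.70% of tested genes, and in untreated mycelium beside 6 members (4.03%, 1.49% to 8.56%) and 5.61% of tested genes. Methylated flanks were no more frequent beside members than elsewhere within these intervals.

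The depth of bisulfite reads over a gene, relative to the genome mean of the library, was taken as a rough measure of its copies. FLM and the liquid cultures also differed in read length and DNA extraction, and copy number itself was not tested. The median ratio of untreated over FLM was 1.00 in members (95% interval of the median 0.953 to 1.02) and 1.03 in all tested genes, with a range in members from 0.673 to 1.97. Only 1 member exceeded 1.5, GSTUMT00001769001 (scaffold 118) at 1.97, where the log2 ratio of RNA was 3.17. Its GC content of 61.8% was the highest of the members, and the part of base content in its depth was not tested. The depth ratio of FB over FLM was 1.07 in members and 1.07 in all tested genes.

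Classified TEs lay within 1 kb of 17 of 149 members (11.4%, interval 6.79% to 17.6%), against 15.9% of tested genes. With 4 or more CG sites read, the 16 such TEs showed 0.332% as their median CG level in FLM, against 19.9% for TEs near any gene, and 9 of the 16 were below 10%, as were 46.7% of those near any gene. Of the 17 TEs, 3 had at least 10 reads of RNA in untreated mycelium, and the share among TEs near any gene was not computed. A CG level lower by more than 20 points in untreated mycelium than in FLM was found in 1 of the 16, against 31 of 950 near any gene (3.26%). A level higher by more than 20 points was also found in 1 of the 16, a Gypsy copy 779 bp from GSTUMT00010692001 (18.7% in FLM and 40.8% in untreated mycelium), against 26 of 950 (2.74%).

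The TE with the lower level was a copy of a LINE, a retrotransposon without long terminal repeats, on scaffold 16 from 90355 to 91248, at 226 bp from GSTUMT00004835001 (88149 to 90129, rank 133). It was picked out after its values were seen. Its CG level was 77.9% in FB (32 sites), 23.4% in FLM (34 sites), 0% in untreated mycelium (18 sites with 150 reads, which allows up to 2%) and 1.52% in treated mycelium (25 sites). Its RNA reads were 0 in FB (a limit of 0.128 CPM), 361 in FLM, 4446 in untreated and 2837 in treated mycelium. The libraries stood in opposite orders in methylation and in RNA, although at this depth 0% and 1.52% cannot be separated. The gene beside it had 1177 reads in FB and 654 in FLM, with 3705 in untreated and 3665 in treated mycelium.

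The gene did not follow the LINE in every library: it was higher in FB, where the LINE was most methylated and had no reads, than in FLM. The CG level of its body was 0.758%, 0.284%, 0.469% and 0.336% in FB, FLM, untreated and treated mycelium. Its flanks went from 26.1% and 8.76% to 0.576% and 0.499% in the same order. They join the 1 kb on both sides and include the part of the LINE that lies within 1 kb. Whether the LINE has a part in the RNA level of the gene was not tested. At the only other TE near a member with at least 10 reads in FLM, a Tc1/Mariner copy that overlaps GSTUMT00008148001, the reads were 7, 14, 75 and 126 in the same order. Its CG level was below 1% in these libraries, and its reads cannot be fully told apart from those of the gene it overlaps.

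**Figure D5:**
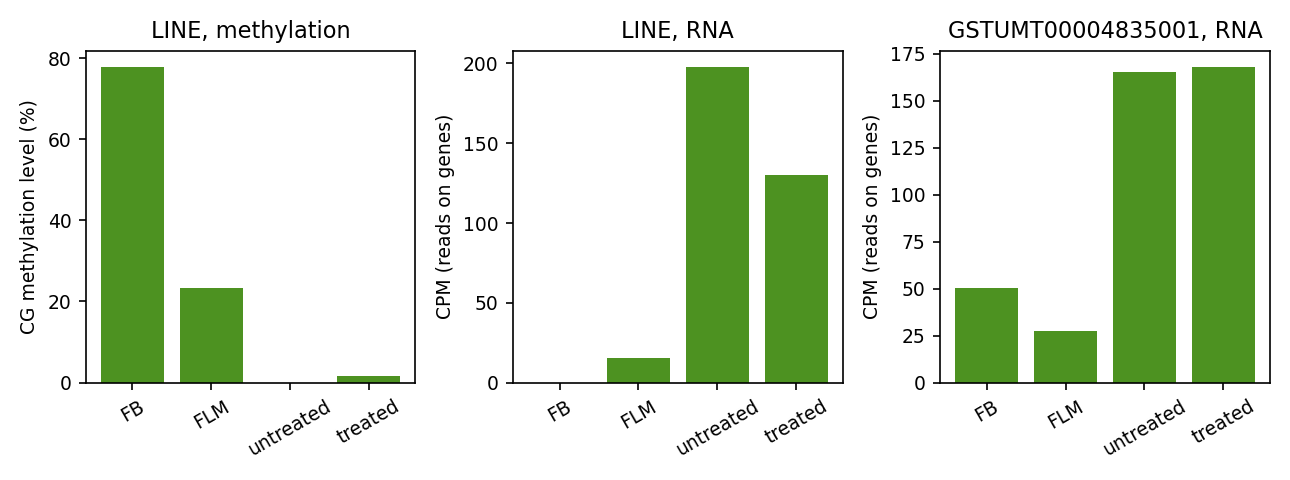
CG methylation level in percent of the LINE copy on scaffold 16 (left), its RNA in CPM (middle) and the RNA of GSTUMT00004835001 at 226 bp (right), in 4 libraries; each bar is 1 library. Methylation is 77.9% in FB, 23.4% in FLM and 0% in untreated mycelium, the LINE's RNA stands at 0, 15.2 and 198 in these libraries, and the gene's at 50.3, 27.5 and 165.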

How the data were processed

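For bisulfite libraries the authors used BS Seeker with the v1.0 assembly as reference. Its version was not given in the sources used here. The deposited tables hold, per cytosine, the counts of methylated and of all reads and their fraction. RNA reads were aligned by the authors with TopHat, and the deposited gene and TE counts are raw HTSeq counts of reads that align uniquely within a single feature. The submitters' processing notes list TopHat2 2.0.4, HTSeq 0.5.4p3 and DESeq 2.12 and 2.13. DESeq results were not used here.

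Computation used Python 3.11.15, numpy 2.4.6, pandas 2.3.3, scipy 1.17.1 and matplotlib 3.10.9. RPKM was computed from the counts, the total on genes and the exonic length in the table of FB and FLM, since both gene tables give the same length for 213 of 7496 genes only. Cytosine positions of FB, FLM and ECM were read as counted from 0, which matched 91.8% of FB cytosines to one listed on that strand for untreated mycelium, against 23.9% otherwise. Coordinates of 7420 genes are those of the RefSeq annotation (ASM15164v1), and those of TEs are as deposited. A pattern that a start codon would give is A or T at 2 bases and then G. It was met at the start or, on the other strand, at the end of 42.5% of the 7420 genes. When coordinates were shifted by 1 or 2 bp the share was 9.38% to 9.70%.

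Cytosines needed 4 reads (1 in ECM) and a gene or TE 4 CG sites. Cytosines listed had a mean depth of 7.35 reads for the untreated and 8.64 for the treated culture, 19.9 for FLM, 20.1 for FB and 1.35 for ECM. Intervals are exact binomial for shares, conditional binomial for ratios of counts and from order statistics for medians. With 1 library per group no test was made between libraries.

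The members, lists and rules were chosen with earlier results of these data known. Members to be named were set by rule, 56 in all, and not all of them are named. They were the 15 with the largest smaller ratio, the 10 with the most untreated reads, the last 5 kept and adjacent pairs. The 5 with the highest gene body CG level and the 5 with the largest CG difference were added. So were the 5 at each extreme of the ratios of treated and of FB to untreated mycelium. Other members were named for their values or a nearby TE, and the first 5 genes outside the limit were named too. The rule was also run on simulated counts in which unchanged genes had the same expected level in all 4 libraries. That setting lacks the shift between untreated mycelium and FLM seen over all tested genes, so it cannot show how the rule behaves under it. Alternatives changed the scaling, pseudocount, count minimum, ratio, FB limit, scaffolds, read and site minimum, and TE and neighbour distance.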

Additional observations from a re-analysis of the deposited data

How the results depend on the processing

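The number of genes that passed the rule was 472. It was 82 with median-of-ratios size factors, 314 without the 100 highest genes in the totals, 234 with a pseudocount of 5 CPM, and 1014 and 118 when the ratio asked for was 3 and 6. The members' median log2 ratio of untreated over FLM was 2.28 with median-of-ratios size factors, 2.85 without the 100 highest genes, 3.14 with a pseudocount of 0.5 and 2.52 with one of 5. That of FB over FLM was 1.48 with median-of-ratios size factors and 1.34 with a pseudocount of 5, and that of treated over untreated was -0.15 with median-of-ratios size factors. Classified TEs lay near 30 members at 2 kb in place of 17 at 1 kb, and any annotated repeat lay within 1 kb of 27. The 25 other values, among them all those of methylation and of bisulfite depth, moved by less than their interval or, for counts, by less than 1.5 times. None changed direction.

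Which genes are taken depends on the settings too. Without the limit on FB, 77 of the 150 genes taken were the same, and with the higher minimum of untreated reads or a pseudocount of 5 CPM, 101 were. Depth limits the members with fewer than 25 reads in FLM and the methylation of ECM. Variation between cultures was not measured.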
